A study of Mus musculus with 9 samples.

Results

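Dual-specificity phosphatases of the MAP kinases are the enzymes that switch this signalling pathway off. Here 6 of their genes, *Dusp1*, *Dusp2*, *Dusp4*, *Dusp5*, *Dusp6* and *Dusp10*, were followed through the last step of invariant natural killer T (iNKT) cell maturation and after loss of the Mediator subunit *Med23*. The members were chosen by gene symbol and all 6 were found among the 21883 genes of the expression table. iNKT cells, T cells that recognise glycolipids presented by CD1d, were sorted from the thymus of C57BL/6 mice, and 3 libraries were sequenced for each of 3 groups. WT stage 2 cells (CD24 low, CD44 high, NK1.1 low) and WT stage 3 cells (CD24 low, CD44 high, NK1.1 high) came from mice stated to be 6 weeks old. The *Med23*-deficient stage 2 cells came from mice whose floxed *Med23* is removed by Cre under the control of the *Cd4* promoter, so that the deletion starts at the CD4+CD8+ stage of T cell development and is not limited to iNKT cells, and no age is given in their labels. Neither the labels nor the methods say how many mice went into a library, and p-values below measure the spread between libraries, which may in part be technical.

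MAP kinases (ERK, JNK and p38) are activated by phosphorylation of a threonine and a tyrosine in their activation loop, and the phosphatases of this family remove both phosphates. Several of the genes are themselves switched on by the pathway, so that they act as negative feedback: in T cells, *Dusp1*, *Dusp2*, *Dusp4*, *Dusp5* and *Dusp6* are induced by antigen receptor signals. The proteins of *Dusp1*, *Dusp2*, *Dusp4* and *Dusp5* reside in the nucleus, that of *Dusp6* in the cytoplasm, and *Dusp5* and *Dusp6* prefer ERK whereas *Dusp10* prefers JNK and p38. *Med23* encodes a subunit of Mediator, the complex between transcription factors and RNA polymerase II, and is known as a link between MAP kinase signalling and immediate early genes.

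Values are FPKM, fragments on a gene scaled for transcript length and mapped reads, so levels can be compared between genes of a library. Comparison between libraries rests on that scaling: a single gene model, *Gm23935*, held between 62.2% and 71.9% of the summed FPKM of a library, and the summed FPKM ranged from 1287520 to 1593800. Differences are log2 fold changes of FPKM + 1 from limma, with p adjusted by Benjamini-Hochberg over all genes tested, and a gene was called at an adjusted p of at most 0.05 or, by the thresholds of the study, at a fold change of at least 2 with an unadjusted p of at most 0.05. The table holds no read counts, which leaves sequencing depth unknown and counting error without an interval. Between 15584 and 17333 genes lay above 0 per library. *Med23* itself was listed at 5.51, 5.15 and 6.74 FPKM (WT stage 2), 7.14, 4.44 and 6.12 FPKM (WT stage 3) and 4.80, 3.60 and 3.92 FPKM (*Med23*-deficient stage 2). All *Med23*-deficient values lay below all WT stage 2 values, with a log2 fold change of -0.41 (limma adjusted p = 0.552), and the value pools deleted and retained exons. The defining T cell gene *Cd3e* stood between 110 and 138 FPKM in all 9 libraries and *Zbtb16*, the PLZF factor of iNKT cells, between 22.7 and 112 FPKM. *Klrb1c*, which encodes the NK1.1 antigen used in the sort, ranged from 7.65 to 26.2 FPKM in WT stage 2, from 57.3 to 95.1 FPKM in WT stage 3 and from 2.61 to 4.6 FPKM in *Med23*-deficient stage 2.

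Promoter windows of 300 bases, from 250 bases before to 50 bases after the RefSeq start site (GRCm38.p6, 5′ to 3′ on the strand of the gene), are shown for the 5 members with a RefSeq window. The reason is that *Dusp1* and *Dusp2* were the most abundant members, *Dusp6* and *Dusp10* had their highest means in *Med23*-deficient cells, and *Dusp5* was the next most abundant member. Capitals mark matches on either strand to the cAMP response element TGACGTCA (CRE), its short form TGACG, which also lies inside the full CRE, the AP-1 motif TGANTCA, the EGR motif GCGNGGGCG, the ETS motif CCGGAA, the TATA box TATAAA and the CArG box bound by SRF. The GC box GGGCGG was searched as well but is left in lower case, because it overlaps the EGR match. The window of *Dusp10* lies inside the gene model of the expression table and not at its outer end. *Dusp4* has no window shown.
Dusp1 (chr17:26508423-26508722, minus strand): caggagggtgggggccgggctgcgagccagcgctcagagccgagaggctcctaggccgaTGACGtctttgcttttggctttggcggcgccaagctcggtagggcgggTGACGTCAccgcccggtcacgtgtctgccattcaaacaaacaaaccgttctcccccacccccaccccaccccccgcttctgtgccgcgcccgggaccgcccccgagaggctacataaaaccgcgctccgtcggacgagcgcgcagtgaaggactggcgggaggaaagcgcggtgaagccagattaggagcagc
Dusp2 (chr2:127335909-127336208, plus strand): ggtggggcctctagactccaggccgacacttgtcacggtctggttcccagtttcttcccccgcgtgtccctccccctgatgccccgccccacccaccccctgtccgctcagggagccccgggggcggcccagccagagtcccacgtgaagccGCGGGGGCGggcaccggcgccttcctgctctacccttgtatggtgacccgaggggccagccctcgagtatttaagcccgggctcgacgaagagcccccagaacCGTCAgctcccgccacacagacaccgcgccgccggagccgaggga
Dusp5 (chr19:53528895-53529194, plus strand): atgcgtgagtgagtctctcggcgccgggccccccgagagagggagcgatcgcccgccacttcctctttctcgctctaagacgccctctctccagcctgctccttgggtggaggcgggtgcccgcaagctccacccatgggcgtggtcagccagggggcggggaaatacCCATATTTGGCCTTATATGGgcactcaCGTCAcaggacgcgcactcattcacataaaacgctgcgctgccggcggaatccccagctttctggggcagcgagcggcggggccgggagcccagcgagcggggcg
Dusp6 (chr10:99262981-99263280, plus strand): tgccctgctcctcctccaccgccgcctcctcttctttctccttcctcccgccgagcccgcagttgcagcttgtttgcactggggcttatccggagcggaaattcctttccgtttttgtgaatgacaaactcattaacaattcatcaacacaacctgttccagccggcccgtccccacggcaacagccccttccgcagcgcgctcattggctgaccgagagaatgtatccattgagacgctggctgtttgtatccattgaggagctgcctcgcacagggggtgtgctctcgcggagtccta
Dusp10 (chr1:184034131-184034430, plus strand): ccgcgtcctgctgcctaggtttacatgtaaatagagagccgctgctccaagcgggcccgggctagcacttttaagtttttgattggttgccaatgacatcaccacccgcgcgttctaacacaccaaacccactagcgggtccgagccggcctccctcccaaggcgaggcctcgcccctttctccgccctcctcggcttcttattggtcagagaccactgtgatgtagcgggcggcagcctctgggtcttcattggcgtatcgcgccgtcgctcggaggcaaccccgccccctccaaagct

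The windows of the 5 genes held different motifs. *Dusp1* had a full CRE at positions -143 to -136 from the start site and a separate short CRE at -191 to -187. The full CRE was found in 1.79% and the short form in 20.8% of 32841 windows of the same length. *Dusp5* had 2 CArG boxes directly next to each other, at -82 to -73 and -72 to -63, where 1.63% of all windows held at least 1, and a short CRE at -55 to -51. *Dusp2* had 1 EGR match at -98 to -90 (5.55% of all windows) and a short CRE at 6 to 10, within the transcribed part. No AP-1, ETS or TATA box letters (7.81%, 14.9% and 13.6% of all windows) occurred in any of the 5 windows. The window of *Dusp6* matched none of the motifs searched, and that of *Dusp10* matched only the GC box, at 3 places, a motif that 35.7% of all windows hold. A match describes letters and not a bound site.

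**Figure D1:**
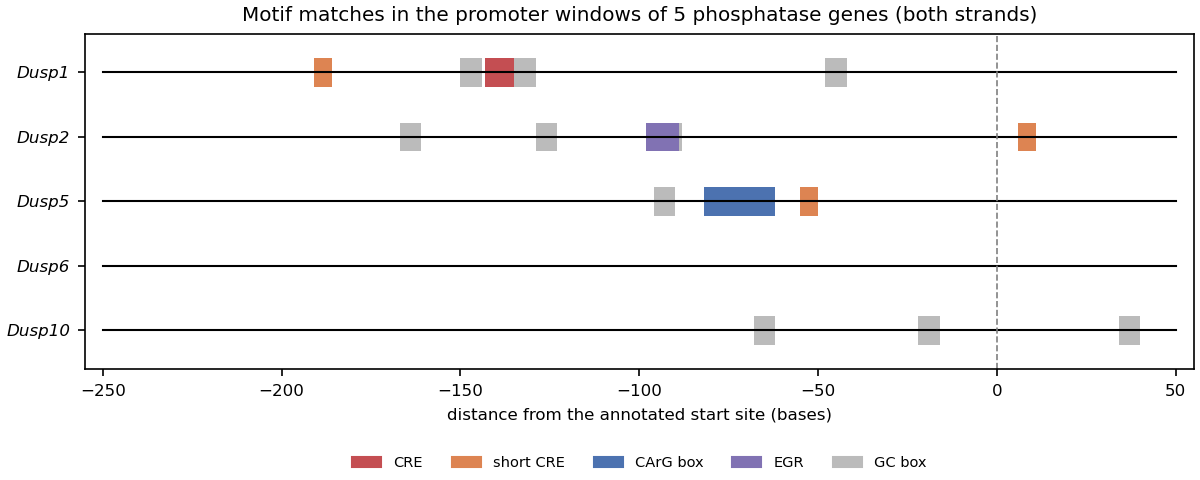
Motif matches in the promoter windows of 5 phosphatase genes, plotted by distance from the annotated start site in bases, with both strands searched and each box spanning the matched bases. *Dusp1* carries the full CRE, *Dusp5* the adjoining pair of CArG boxes and *Dusp2* the EGR match, while *Dusp6* carries no match and *Dusp10* only GC boxes.

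Across the 9 libraries the members fell into tiers of abundance. *Dusp2*, first described as a phosphatase of activated T cells, was the most abundant member in 9 of 9 libraries, and *Dusp1* was second in 8 of 9. *Dusp2* and *Dusp1* together made up between 69.9% and 89.5% of the summed FPKM of the 6 genes. *Dusp5* followed and stood above *Dusp6* and *Dusp10* in 9 of 9 libraries, by at least 2.1-fold and 1.98-fold. The only change of order among the upper 3 was in WT stage 2 replicate 1, where *Dusp5* (20.1 FPKM) and *Dusp1* (19.6 FPKM) were level. *Dusp6* and *Dusp10* could not be ranked against each other, since *Dusp6* was the higher of the pair in 4 of 9 libraries. *Dusp4* was at the bottom in every library, never above 1.53 FPKM.

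*Dusp1* encodes a nuclear phosphatase that acts on JNK, p38 and ERK and is a classical immediate early gene. The gene (ENSMUSG00000024190) spans chr17:26505590-26508519 on the minus strand of mm10. It was listed at 19.6, 62.0 and 44.1 FPKM (WT stage 2), 49.8, 99.4 and 128 FPKM (WT stage 3) and 26.5, 59.5 and 52.8 FPKM (*Med23*-deficient stage 2). Stage 3 had the highest mean, 92.5 ± 39.7 FPKM against 41.9 ± 21.3 in WT stage 2 and 46.3 ± 17.4 in *Med23*-deficient cells (SD, n = 3 each), but its lowest library lay below the highest library of both other groups. The spread within a group was wide, with an SD between 37.7% and 50.8% of the mean. The log2 fold change from WT stage 2 to WT stage 3 was 1.17 (95% interval -0.09 to 2.42, limma adjusted p = 0.413). In bulk libraries a larger number of cells with the transcript and more transcript per cell cannot be told apart.

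*Dusp2* showed a like profile at a higher level. The gene (ENSMUSG00000027368) spans chr2:127336159-127338376 on the plus strand of mm10. Its values were 55.9, 102 and 99.8 FPKM (WT stage 2), 104, 122 and 165 FPKM (WT stage 3) and 70.4, 94.2 and 104 FPKM (*Med23*-deficient stage 2). All stage 3 libraries lay above all WT stage 2 libraries, though the nearest values, 103.52 and 101.83 FPKM, almost touched, and the *Med23*-deficient libraries overlapped both groups. *Dusp2* was the 1 member of 6 whose WT stages did not overlap, where 17.8% of all genes tested did not, and the log2 fold change was 0.62 (95% interval -0.08 to 1.32, limma adjusted p = 0.434). The ratio of *Dusp2* to *Dusp1* ranged from 1.23 to 2.85, with both extremes in WT libraries.

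*Dusp5*, a nuclear phosphatase specific for ERK, was close to level. The gene (ENSMUSG00000034765) spans chr19:53529109-53542431 on the plus strand of mm10. It measured 20.1, 26.6 and 20.5 FPKM (WT stage 2), 26.6, 36.0 and 22.01 FPKM (WT stage 3) and 20.5, 26.2 and 21.4 FPKM (*Med23*-deficient stage 2). The 3 groups overlapped. Between *Med23*-deficient and WT stage 2 cells its log2 fold change was 0.02 (95% interval -0.35 to 0.39).

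*Dusp6*, the cytoplasmic ERK phosphatase, had its highest values in cells without *Med23*. The gene (ENSMUSG00000019960) spans chr10:99263231-99267488 on the plus strand of mm10. It was listed at 5.57, 6.82 and 5.10 FPKM (WT stage 2), 7.22, 7.74 and 6.20 FPKM (WT stage 3) and 9.77, 10.5 and 8.97 FPKM (*Med23*-deficient stage 2). Every *Med23*-deficient library lay above every WT library of either stage, while the WT stages overlapped. For this and the like separations from both WT stages below, the share over all genes was not computed. Taken singly, 14% of all genes did not overlap with WT stage 2 and 14.2% not with WT stage 3, in either direction. The means were 5.83 ± 0.889, 7.05 ± 0.783 and 9.75 ± 0.770 FPKM (SD, n = 3 each).

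*Dusp10*, which prefers JNK and p38 as substrates, also separated the *Med23*-deficient cells from both WT stages. The gene (ENSMUSG00000039384) spans chr1:184013302-184075636 on the plus strand of mm10. Its values were 6.63, 4.72 and 7.90 FPKM (WT stage 2), 2.82, 4.37 and 6.23 FPKM (WT stage 3) and 9.79, 9.88 and 10.8 FPKM (*Med23*-deficient stage 2). The WT stages overlapped, with the lower mean in stage 3 (4.47 ± 1.71 against 6.42 ± 1.6 FPKM; SD, n = 3 each), and the *Med23*-deficient libraries lay closest together, at 10.2 ± 0.565 FPKM (SD, n = 3). The gene model of *Dusp10* overlaps *1700056E22Rik* in the table, and whether strand was used in quantification is not given in the sources used here, so reads of this pair may not be fully separated. The other 5 members overlap no other gene of the table.

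*Dusp4*, a nuclear phosphatase of ERK, JNK and p38, was hardly present. The gene (ENSMUSG00000031530) spans chr8:34807297-34819894 on the plus strand of mm10. It was listed at 0.11, 0 and 1.53 FPKM (WT stage 2), 1.03, 1.26 and 0 FPKM (WT stage 3) and 0.27, 0.99 and 0.26 FPKM (*Med23*-deficient stage 2). A 0 was found in both WT stages and the 3 groups overlapped throughout.

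**Figure D2:**
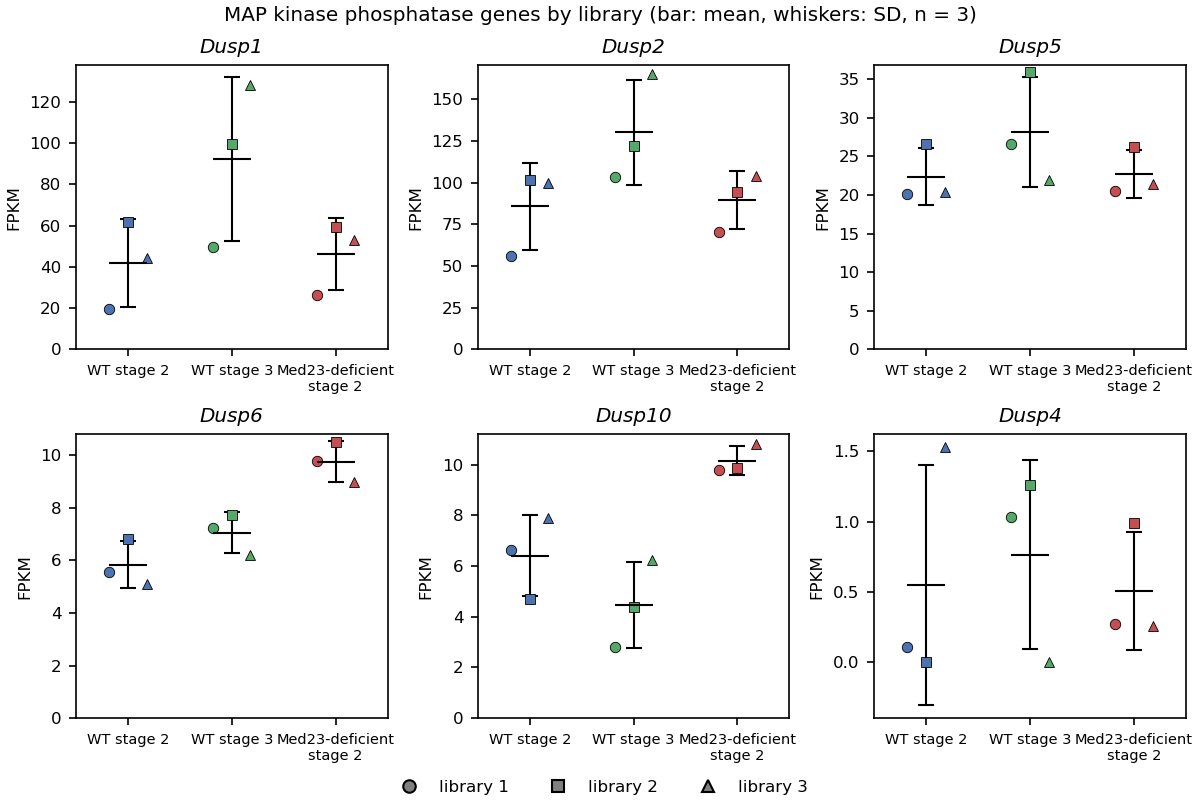
FPKM of the 6 phosphatase genes in each library, with 1 panel per gene and its own linear axis, the group mean as a bar and whiskers of 1 SD (n = 3). The *Med23*-deficient points of *Dusp6* and *Dusp10* lie above all WT points, whereas *Dusp1* and *Dusp2* are highest in WT stage 3 with wide spread and *Dusp4* stays at or below 1.53 FPKM.

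The first comparison asked what changes in the final transition, from WT stage 2 to WT stage 3. The means on the log2 scale were higher in stage 3 for 5 of 6 members and lower for *Dusp10* (the sign of *Dusp4* turned without WT stage 2 replicate 2), with a median log2 fold change of 0.27, beside -0.01 over all 20689 genes tested. None of the 6 passed an adjusted p of 0.05 in limma, where 1.67% of all genes did, none passed the fold and p thresholds (3.6% of all genes), and none had an unadjusted p of at most 0.05 (13.2% of all genes). A model after Ballgown, the tool of the study, also gave 0 members at an adjusted p of 0.05, which only 5 of all genes passed. It put 1 member past the fold and p thresholds, beside 772 of all 20689 genes. This was *Dusp2*, with a log2 fold change of 1.25 (adjusted p = 0.43). The estimates for *Dusp5* (log2 fold change 0.30, 95% interval -0.20 to 0.80), *Dusp6* (0.24, interval -0.16 to 0.64) and *Dusp10* (-0.46, interval -1.19 to 0.26) all had intervals across 0. That of *Dusp1* exceeded a 2-fold difference without passing, at an unadjusted limma p of 0.0633, and it passed the fold and p thresholds when WT stage 2 replicate 2 or WT stage 3 replicate 1 was left out. Leaving out each library in turn gave *Dusp1* log2 fold changes between 0.71 and 1.55.

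The second comparison set *Med23*-deficient against WT stage 2 cells, groups that share the stage label and differ in genotype. They may also differ in age, which is not given for the *Med23*-deficient mice, and in processing. The paper reports a lower frequency of NKT17 cells, a subset of iNKT cells, in the *Med23*-deficient gate. The part of age, processing or subsets in the differences below was not tested. All 6 members had a higher mean on the log2 scale in the *Med23*-deficient cells, with a median log2 fold change of 0.15, beside -0.01 over all 20674 genes tested, but the values of *Dusp1*, *Dusp2*, *Dusp4* and *Dusp5* turned negative without WT stage 2 replicate 1, and those of *Dusp2*, *Dusp4* and *Dusp5* also did so on a TPM scale. For each of these 4 genes, leaving out some other single library turned the sign as well. The sign was kept in 16 of 18 alternatives for *Dusp1*, 15 of 18 for *Dusp2*, 13 of 17 for *Dusp4* and 12 of 18 for *Dusp5*. *Dusp6* had a log2 fold change of 0.66 (95% interval 0.29 to 1.03, limma adjusted p = 0.209). *Dusp10* had a log2 fold change of 0.61 (95% interval 0.15 to 1.08, limma adjusted p = 0.367). These were the 2 of 6 members with an unadjusted p of at most 0.05 and the 2 whose groups did not overlap, where 9.58% and 14% of all genes tested met these conditions. Without *Med23*-deficient replicate 3, and in the Ballgown-style model, *Dusp10* no longer had an unadjusted p of at most 0.05. None of the 6 passed an adjusted p of 0.05 in limma (0.213% of all genes) or in the Ballgown-style model (1 of all genes), and none reached the fold and p thresholds (2.11% of all genes). *Dusp1* and *Dusp2* had log2 fold changes of 0.21 (95% interval -0.98 to 1.39) and 0.09 (interval -0.57 to 0.75), so differences of up to those bounds are not resolved with 3 libraries per group.

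The third comparison, of *Med23*-deficient stage 2 with WT stage 3 cells, holds differences of both stage and genotype, and it shares its libraries with the first and second, which in turn share the WT stage 2 libraries. Here *Dusp10* was the 1 member of 6 past the fold and p thresholds (2.86% of all 20846 genes tested), with a log2 fold change of 1.07 (95% interval 0.47 to 1.68, limma adjusted p = 0.16). Without WT stage 3 replicate 1, its lowest library, the value was 0.84 and *Dusp10* no longer reached the fold, while *Dusp1* then passed both thresholds. *Dusp6* was higher as well, by 0.42 on the log2 scale (95% interval 0.10 to 0.74, limma adjusted p = 0.312), and both were among the 14.2% of genes whose groups did not overlap. *Dusp1* (-0.96, 95% interval -2.04 to 0.12) and *Dusp2* (-0.53, interval -1.06 to 0.01) had lower means in the *Med23*-deficient cells, and *Dusp5* was at -0.28 (interval -0.76 to 0.20). None of the 6 passed an adjusted p of 0.05 in limma, where 1.33% of all genes did, or in the Ballgown-style model, and 2 of 6 had an unadjusted limma p of at most 0.05 (10.2% of all genes). *Dusp6* was no longer among them without *Med23*-deficient replicate 1, without *Med23*-deficient replicate 2, without WT stage 3 replicate 3 or on a TPM scale without *Gm23935*. *Dusp2* reached such a p with a pseudocount of 0.1 or 0.01, a mean of at least 1 FPKM or either TPM scale. It also did so with replicate number in the model, without *Med23*-deficient replicate 3 or without WT stage 3 replicate 1. *Dusp1* reached it with a pseudocount of 0.01, with replicate number in the model or without WT stage 3 replicate 1. Over the 6 genes the median of the log2 fold changes was -0.23, beside 0.00 over all genes.

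**Figure D3:**
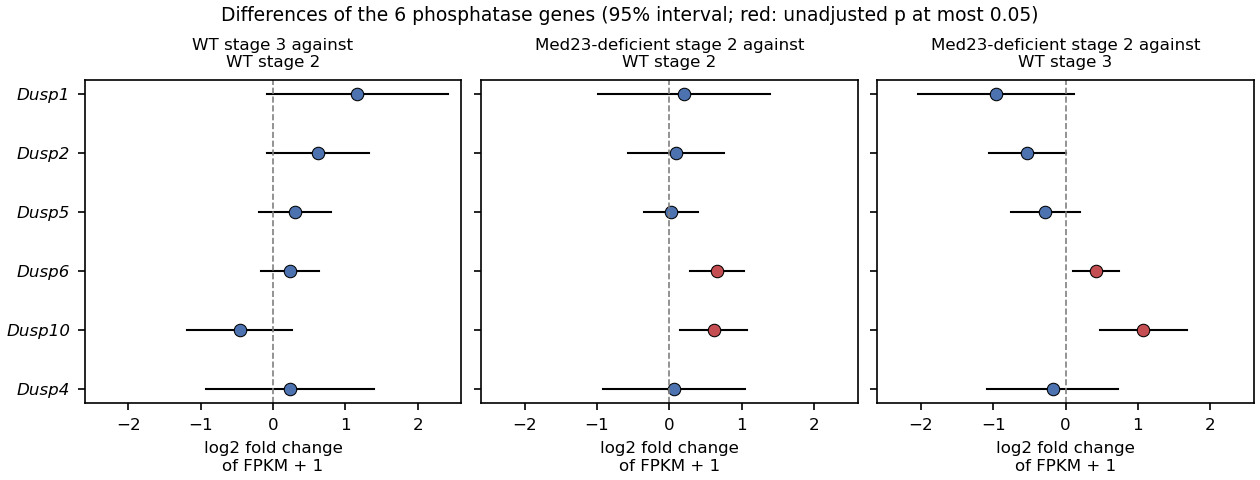
Log2 fold changes of FPKM + 1 for the 6 genes in the 3 comparisons, as points with 95% intervals from limma. Red points, those with an unadjusted p of at most 0.05, are *Dusp6* and *Dusp10* in both comparisons with *Med23*-deficient cells, and no point passes after adjustment over all genes.

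The highest mean FPKM was that of WT stage 3 for 4 members, *Dusp1*, *Dusp2*, *Dusp4* and *Dusp5*, and that of *Med23*-deficient stage 2 for 2 members, *Dusp6* and *Dusp10*. The ratio of *Dusp1* to *Dusp6* ranged from 3.51 to 9.09 in WT stage 2, from 6.89 to 20.7 in WT stage 3 and from 2.71 to 5.89 in *Med23*-deficient stage 2. All stage 3 ratios lay above all *Med23*-deficient ratios. The ratio of *Dusp2* to *Dusp10* was between 26.5 and 36.7 in WT stage 3, above every ratio of WT stage 2 (8.42 to 21.6) and of *Med23*-deficient stage 2 (7.19 to 9.61). These ratios are free of the scaling between libraries, and they were chosen after the values were seen. Each sets a member with its highest mean in stage 3 over one with its highest mean in *Med23*-deficient cells. Their separation therefore restates the values above and adds no further support.

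The genes most like a member over the 9 libraries were ranked by the root mean square difference of log2(FPKM + 1), after centring each gene, among 5689 genes with a mean of at least 5 FPKM. For *Dusp1* they were *Fosb*, an AP-1 factor (0.25), *Ccdc92* (0.26) and *Tnfaip3*, the ubiquitin-editing inhibitor of NF-κB (0.29), where the median gene differed by 0.83. *Fosb* was listed at 1.45, 5.28 and 2.47 FPKM (WT stage 2), 2.52, 8.31 and 14.6 FPKM (WT stage 3) and 1.71, 4.21 and 4.79 FPKM (*Med23*-deficient stage 2), with the lowest library in the same place of each group as *Dusp1*, to which it was matched over these same libraries. For *Dusp2* they were *Elovl5*, a fatty acid elongase (0.15), *Zfp36l2*, a binder of AU-rich RNA (0.16), and *Cyth4* (0.18), beside a median of 0.49. For *Dusp6* they were *Itih5* (0.10), *Swap70* (0.13) and the tyrosine kinase gene *Tnk2* (0.13), beside a median of 0.41. *Swap70* stood at 7.63 to 8.76 FPKM in WT stage 2, 8.70 to 10.7 FPKM in WT stage 3 and 12.8 to 15.0 FPKM in *Med23*-deficient stage 2. For *Dusp10* they were *Bzw2* (0.20), *Faah* (0.22) and *Rbpj*, the DNA-binding factor of Notch signalling (0.25), beside a median of 0.59. *Bzw2* ranged from 54.9 to 66.2 FPKM in WT stage 2, from 31.2 to 42.4 FPKM in WT stage 3 and from 87.7 to 94.1 FPKM in *Med23*-deficient stage 2, so its 3 groups did not overlap. Between members the smallest difference was 0.34, for *Dusp5* and *Dusp6*, and that of *Dusp1* and *Dusp2* was 0.39. The root mean square deviation from the own mean was 0.78 for *Dusp1*, 0.41 for *Dusp2*, 0.25 for *Dusp5* and 0.30 for *Dusp6*, so *Dusp5* and *Dusp6* differed from each other by more than either did from a flat line.

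**Figure D4:**
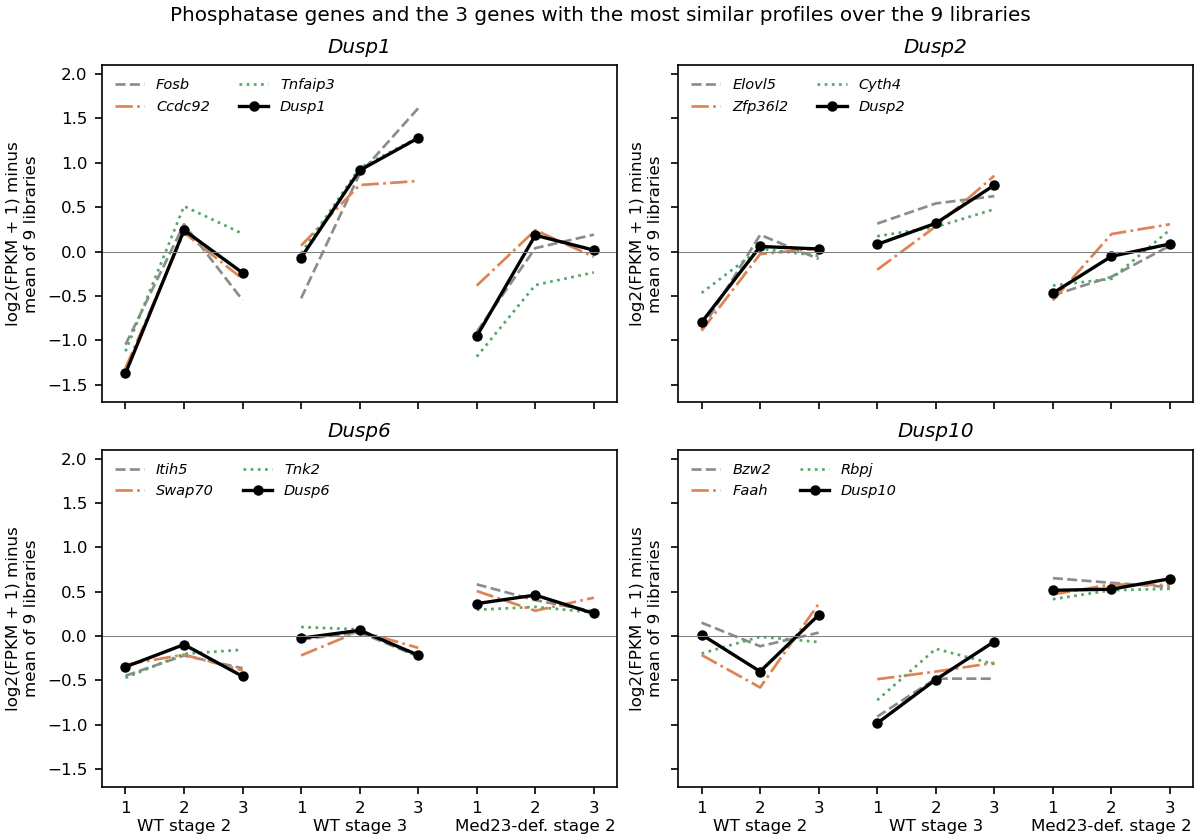
Log2(FPKM + 1) minus its mean over the 9 libraries for 4 phosphatase genes (black) and the 3 genes nearest to each, with libraries in the order of their labels and lines joining points only to guide the eye. *Dusp1* and *Dusp2* are lowest in the library numbered 1 of each group, whereas *Dusp6* and *Dusp10* are set apart by the *Med23*-deficient group.

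The remaining MAP kinase phosphatases were few. *Dusp7*, a cytoplasmic ERK phosphatase, was expressed at 11.2, 9.12 and 8.4 FPKM (WT stage 2), 13, 16.0 and 14.6 FPKM (WT stage 3) and 7.61, 11.5 and 9.56 FPKM (*Med23*-deficient stage 2). All stage 3 libraries were above all others, with log2 fold changes of 0.56 against WT stage 2 (limma adjusted p = 0.152) and, for *Med23*-deficient against WT stage 3 cells, -0.57 (adjusted p = 0.27). In these comparisons the groups did not overlap for 17.8% and 14.2% of all genes. *Dusp16* had a mean of 0.493, 0.517 and 0.453 FPKM in the same order of groups, and *Dusp8* and *Dusp9* means of at most 0.16 FPKM. Of the atypical phosphatases, 9 of 14 listed were in the table, and *Dusp22* was the only one past a threshold, the fold and p thresholds in *Med23*-deficient against WT stage 2 cells (2.11% of all genes). It was listed at 0.59, 0 and 0 FPKM (WT stage 2), 1.03, 0 and 0.39 FPKM (WT stage 3) and 2.97, 1.22 and 1.21 FPKM (*Med23*-deficient stage 2) (limma adjusted p = 0.299).

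Among the MAP kinase genes, *Mapk11* had the largest differences in both comparisons with WT stage 3. This gene, which encodes p38 beta, was listed at 6.46, 6.34 and 6.78 FPKM in WT stage 2, fell to 0.15, 0.15 and 0 FPKM in WT stage 3 (limma adjusted p = 0.00843) and stood at 12.2, 8.84 and 8.25 FPKM in *Med23*-deficient stage 2. Against WT stage 3 the *Med23*-deficient cells were higher at a limma adjusted p of 0.00517. *Mapk12*, which encodes p38 gamma, was listed at 0 in all 6 WT libraries whereas the *Med23*-deficient ones had 0.96, 1.87 and 2.02 FPKM (limma adjusted p = 0.0908 against WT stage 2 and 0.0443 against WT stage 3). The atypical kinase gene *Mapk6* (ERK3) measured 11.0, 9.37 and 13.2 FPKM in WT stage 2 and fell to 4.17, 2.97 and 3.88 FPKM in *Med23*-deficient stage 2, past the fold and p thresholds (adjusted p = 0.0703), with 5.31 to 6.49 FPKM in WT stage 3. *Mapk10*, a JNK gene, was listed at no more than 0.41 FPKM in WT stage 2 and at 0 in the other 6 libraries (limma adjusted p = 0.0348 between the WT stages). *Mapk3*, which encodes ERK1, ranged from 6.94 to 11.9 FPKM with all groups overlapping. Of the 13 MAP kinases listed, 10 were in the table. Of 9 tested between the WT stages 0 rose and 2 fell at an adjusted p of 0.05, which 1.67% of all genes passed. Of 10 tested in *Med23*-deficient against WT stage 2 cells 0 passed it (0.213% of all genes). Of 9 tested against WT stage 3 there were 2 that rose (1.33% of all genes passed). The call of *Mapk11* between the WT stages was lost without WT stage 2 replicate 3 (adjusted p = 0.0522) or WT stage 3 replicate 3 (0.0597), and held against *Med23*-deficient cells with any library left out. That of *Mapk10* was lost without any of the 6 libraries (adjusted p between 0.0709 and 0.158), and that of *Mapk12* against WT stage 3 without any but *Med23*-deficient replicate 1 (0.0853 to 0.195). Such losses were common over all genes. With 1 library left out, adjusted calls between the WT stages fell from 346 to between 22 and 137. Those of *Med23*-deficient against WT stage 3 cells fell from 278 to between 72 and 174.

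Upstream of the kinases fewer genes passed. None of the 7 MAP kinase kinases passed a threshold in any of the 3 comparisons. Of the 13 upstream kinases, *Map3k8* (Tpl2, an activator of the ERK arm) rose by the fold and p thresholds between the WT stages (3.6% of all genes passed), from 0.937 to 3.32 FPKM on average (limma adjusted p = 0.0985), and was intermediate in *Med23*-deficient stage 2 at 2.08 to 2.31 FPKM. None of the 14 Ras activators and scaffolds passed. The largest difference among them was that of *Ksr1*, an ERK scaffold, listed at 3.12, 3.31 and 4.25 FPKM (WT stage 2), 2.81, 3.18 and 3.88 FPKM (WT stage 3) and 7.30, 5.95 and 8.43 FPKM (*Med23*-deficient stage 2). Its *Med23*-deficient values lay above all WT values, like those of *Dusp6* (log2 fold change 0.85 against WT stage 2, adjusted p = 0.209).

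Other inhibitors of Ras and ERK signalling differed between groups in both directions. *Spry2*, a Sprouty inhibitor of Ras and ERK signalling, was listed at 8.18, 5.32 and 5.70 FPKM in WT stage 2, rose to 18.7, 21.6 and 12.4 FPKM in WT stage 3 by the fold and p thresholds (limma adjusted p = 0.074) and stood at 2.73, 2.28 and 4.93 FPKM in *Med23*-deficient stage 2, lower than WT stage 3 at an adjusted p of 0.0388. Its relative *Spry1* had 1.56, 1.24 and 0.48 FPKM (WT stage 2), 0.89, 0 and 0.71 FPKM (WT stage 3) and 1.96, 2.45 and 2.82 FPKM (*Med23*-deficient stage 2), and was higher in the latter than in WT stage 3 by the fold and p thresholds (adjusted p = 0.21). *Rasal3*, a Ras GTPase-activating protein gene, rose between the WT stages from 55.3 to 75.7 FPKM on average (adjusted p = 0.0472), a call lost without any of the 6 libraries (0.126 to 0.154). The call of *Spry2* against WT stage 3 was lost without any library but *Med23*-deficient replicate 3 (0.0800 to 0.143). In both comparisons the calls over all genes also became fewer with each library left out. In *Med23*-deficient against WT stage 2 cells none of the 11 inhibitors tested passed a threshold, and the lowest log2 fold change was that of *Rasa1*, -0.84, with means of 67.0 FPKM in WT stage 2 and 36.8 FPKM without *Med23* (adjusted p = 0.0801).

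**Figure D5:**
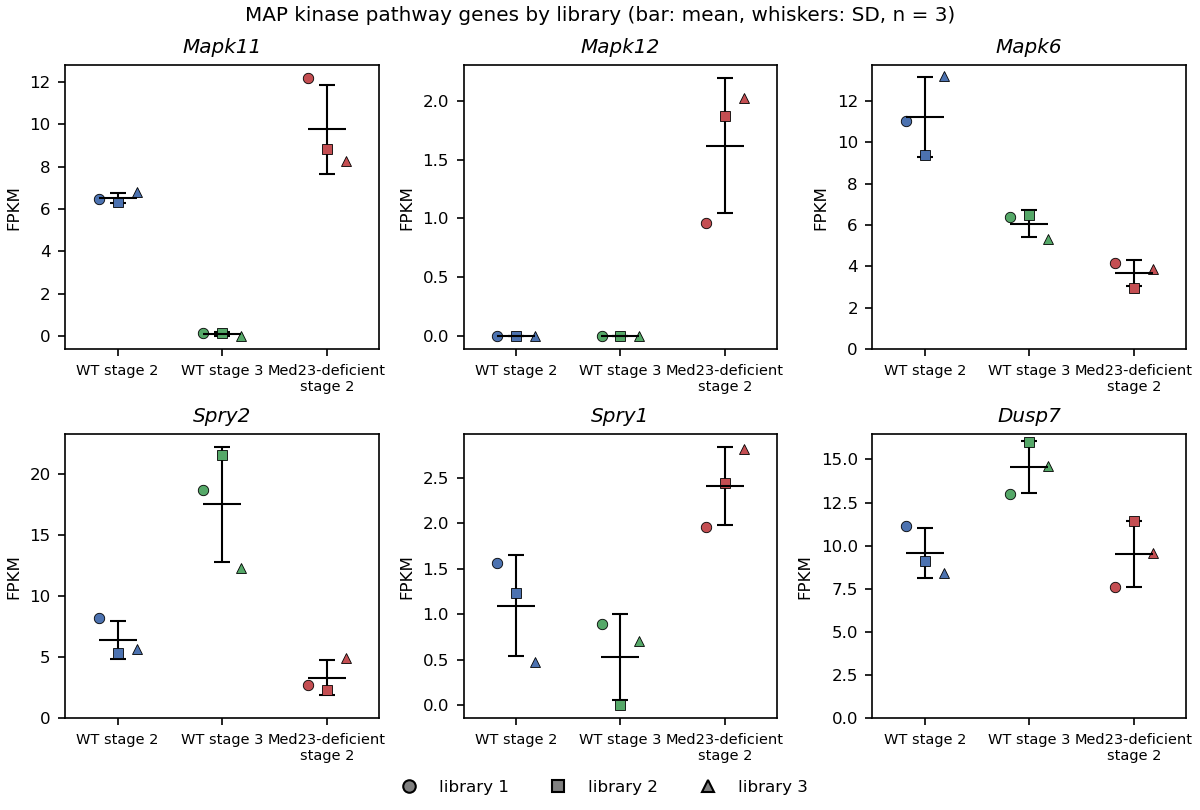
FPKM of 6 other genes of the pathway in each library, with 1 panel per gene and its own linear axis, the group mean as a bar and whiskers of 1 SD (n = 3). *Mapk11* is near 0 in WT stage 3 only, *Mapk12* is above 0 in *Med23*-deficient cells only, and *Spry2* and *Dusp7* are highest in WT stage 3.

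A list of 20 genes tied to the ERK response had mixed signs. It holds immediate early genes and also transcription factor genes such as *Elk1*, *Elk3* and *Elk4*. Of 19 tested between the WT stages, 11 had a higher and 8 a lower mean in stage 3 (median log2 fold change 0.19, beside -0.01 over all genes), and *Fosl2*, an AP-1 gene, was the 1 past the fold and p thresholds (3.6% of all genes), from 4.40 to 11.7 FPKM on average (adjusted p = 0.0646). Of 20 tested in *Med23*-deficient against WT stage 2 cells, 10 had a higher and 10 a lower mean (median 0.01, beside -0.01 over all genes), and *Egr1* was the 1 past the fold and p thresholds (2.11% of all genes), with 32.8, 27.0 and 24.9 FPKM in WT stage 2 against 15.7, 14.4 and 8.27 FPKM (adjusted p = 0.199). None passed an adjusted p of 0.05 in any of the 3 comparisons as fitted here, though *Fosl2* did between the WT stages with a filter on a mean of at least 1 FPKM (limma adjusted p = 0.0259) or a pseudocount of 0.01 (0.0462).

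Because *Dusp1* is also known to respond to cell handling, the summed FPKM of 14 genes induced by tissue handling was set beside it. That sum ranged from 670 to 801 in WT stage 2, from 768 to 854 in WT stage 3 and from 591 to 726 in *Med23*-deficient stage 2. Its lowest library was number 1 in both WT groups, as for *Dusp1*, and number 3 in the *Med23*-deficient group. The largest part of the sum was *Hspa8*, at 247 to 324 FPKM in WT stage 2 and 247 to 301 FPKM in WT stage 3. In *Med23*-deficient stage 2 *Hspa8* stood at 173 to 208 FPKM. The lowest libraries of *Hspa8* were those of the sum, so the sum is no index of all 14 genes. *Fosb*, the gene nearest to *Dusp1*, is in the ERK response list and not in this sum. Of these 14 genes, *Jund* rose between the WT stages from 105 to 168 FPKM (adjusted p = 0.0201, and 0.0619 to 0.0889 with any 1 library left out, where calls over all genes also became fewer), *Nr4a1* fell from 9.18 to 2.61 FPKM by the fold and p thresholds (adjusted p = 0.148), and the heat shock gene *Hspa1a* passed no threshold. The part of handling in the values of *Dusp1* was not tested.

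Genes of other cell types were set beside these results. The summed FPKM of 8 genes of CD4+CD8+ thymocytes lay between 1.79 and 5.05 in every library, and that of the erythroid list, of which 1 of 6 genes was in the table, at no more than 0.75. Of 6 B cell genes 3 were in the table: *Ighm* ranged from 31.2 to 55.1 FPKM in WT libraries and from 85.6 to 104 FPKM in *Med23*-deficient ones, all above the WT values like those of *Dusp6* and *Dusp10*, while *Cd79a* and *Cd79b* were listed at 0 in all 3 *Med23*-deficient libraries. Of 7 myeloid genes 5 were in the table, with sums of 12.5 to 20.5 in WT stage 2, 40.9 to 51.9 in WT stage 3 and 11.6 to 13.7 in *Med23*-deficient stage 2. The stage 3 excess was that of *Fcer1g* (30.5 to 41.3 FPKM), which NK receptors also use, and *Csf1r* stayed at or below 0.12 FPKM. *Fcer1g* had 0.30, 0 and 1.48 FPKM (WT stage 2) and 3.80, 1.24 and 2.23 FPKM (*Med23*-deficient stage 2). For *Lyz2* these were 0, 0 and 0 FPKM and 0, 1.18 and 1.24 FPKM. *Cst3*, the bulk of the stage 2 sums, went the other way. Between these groups 3 of 5 myeloid genes had a higher mean without *Med23*, 1 of them past the fold and p thresholds, and 2 a lower mean. The part of other cells in the phosphatase values was not tested.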

How the data were processed

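RNA of thymic iNKT cells sorted by FACS was sequenced in 9 libraries, 3 for each group, with groups taken from the sample labels. The authors trimmed reads with Trimmomatic 0.36, aligned them to mm10 with HISAT2 and computed the deposited FPKM values with StringTie. Multimapping reads were kept up to 2 loci. The FPKM values were rounded to 2 decimals by the authors, and low values were not whole multiples of a read, so depth could not be recovered.

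Here log2(FPKM + 1) was compared in limma 3.58.1 (R 4.3.3) with a mean-variance trend, using the 6 libraries of each comparison and genes above 0 in at least 1 of them, with p-values adjusted by Benjamini-Hochberg, and the script was tested on simulated data. A pseudocount of 1 shrinks the fold changes of low genes. An exact permutation test of 3 against 3 libraries cannot give a p below 0.1 and was not used. The thresholds of a fold change of 2 and p of 0.05 follow the study. Genes were named if they were members, *Med23*, list genes past a threshold, the list gene with the highest or lowest value where none passed, or the 3 genes nearest to a member, and not all of those that the rule allows are described. Cell type markers come from a list of their own, and *Mapk3*, *Dusp16*, *Hspa1a* and *Gm23935*, which fall outside the rule, were chosen after their values were seen. Members and lists were chosen with earlier results of these data known. Promoter windows and motif matches were computed with Python 3.11.15 from RefSeq sequences of GRCm38.p6, the assembly that mm10 is based on. Alternatives covered the pseudocount, the filter, the scaling, the model and leaving out each library.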

Additional observations from a re-analysis of the deposited data

How the results depend on the processing

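No member passed an adjusted p of 0.05 under any of the alternatives run, and no list gene did in the Ballgown-style model. Few of all genes passed there: 5 between the WT stages, and 1 and 18 for *Med23*-deficient cells against WT stage 2 and stage 3. With a block for replicate number these counts were 19, 0 and 42. Between WT stages the count of members past the fold and p thresholds was 0, but 1 with a pseudocount of 0.1 or 0.01, a mean of at least 1 FPKM (all *Dusp1*) or the Ballgown-style model (*Dusp2*), and 0 to 1 with each library left out. The count over all 20689 genes was 745 in the main fit, 1423 and 1452 with these pseudocounts and 772 in the Ballgown-style model. With the filter on the mean it was 698 of 11781 genes. Between *Med23*-deficient and WT stage 3 cells the count of members was 1, but 0 on a TPM scale. Over all 20846 genes these 2 settings gave 597 and 451. Same-numbered libraries were weakly correlated between the WT stages (0.08, 0.03 and 0.16), each above the other numbers (at most 0.03, 0.005 and -0.06). Against *Med23*-deficient cells this held for number 3 in both comparisons (0.14 and 0.27), for number 1 only with WT stage 3 and for number 2 in neither. Whether replicate numbers pair the libraries is not settled. With the replicate block the counts of members were 1 (*Dusp1*, limma adjusted p = 0.146) between the WT stages, and 0 and 1 for *Med23*-deficient cells against WT stage 2 and stage 3. Between the WT stages *Dusp1*, *Dusp2* and *Dusp5* then had an unadjusted limma p of at most 0.05. For *Med23*-deficient against WT stage 2 cells, log2 fold changes turned sign on a TPM scale for *Dusp2* (-0.0384), *Dusp4* (-0.0021) and *Dusp5* (-0.1018), and for *Dusp5* also on a TPM scale without the gene model *Gm23935* (-0.0138) and in the Ballgown-style model (-0.012). With each library left out the same comparison ranged from -0.2523 to 0.5566 for *Dusp1*, from -0.1889 to 0.253 for *Dusp2*, from -0.1878 to 0.4817 for *Dusp4* and from -0.0814 to 0.148 for *Dusp5*. For *Dusp4* the range was -0.0122 to 0.6573 between the WT stages and -0.5419 to 0.0463 for *Med23*-deficient against WT stage 3 cells, where a pseudocount of 0.01 gave 0.839. The cause of these turns was not tested. The median gene had a log2 fold change of -0.05 in FPKM and -0.13 on a TPM scale between the WT stages, and of -0.05 and -0.15 in *Med23*-deficient against WT stage 2 cells. Between the WT stages *Spry2* passed an adjusted p of 0.05 with a mean of at least 1 FPKM (0.029) or a pseudocount of 0.01 (0.0471), and *Map3k8* with that filter (0.0478), without a trend (0.0424) or with all 9 libraries (0.03). *Dusp4* was not tested with a mean of at least 1 FPKM, which it does not reach.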

Other observations

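*Dusp1* and *Dusp2* had their lowest value in the library numbered 1 of all 3 groups, as did 6.38% of the 11778 genes with a mean of at least 1 FPKM. This held for 2 of the 5 members above that level, and for 4 of 17 genes of the ERK response list, *Mcl1*, *Fos*, *Fosl2* and *Fosb*, the last of which is also the gene nearest to *Dusp1*. It also held for 2 of 13 genes induced by tissue handling, *Btg2* and *Hsph1*. The pattern was noticed after the values were seen. Library number 1 is not labelled as a batch, and no cause was tested.

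The genes nearest to *Dusp5* over the 9 libraries were *Snapc5* (root mean square difference 0.14 on the log2 scale), the immediate early gene *Ier2* (0.14) and *Pwwp2a* (0.14), beside a median of 0.36. Those nearest to *Dusp4* were *Slc25a39* (0.26), *Ift20* (0.31) and *Tusc3* (0.31), beside a median of 0.57, and with *Dusp4* at or below 1.53 FPKM its profile is poorly measured.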
